A study of Mus musculus with 12 samples.

Results

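Aortic arches of Apoe-/- mice were compared after 24 and after 8 weeks on a high-fat diet, the widest span of diet within the knockout. Of the 12 arrays of the series, 6 entered the comparison directly: pools 10, 11 and 12 at 24 weeks, and pools 1, 2 and 3 at 8 weeks. The titles call the knockout pools no drug and the common reference a vehicle pool of 21 mice. All mice were C57BL/6, and both groups compared lacked Apoe, the apolipoprotein through which the liver clears cholesterol-rich particles. The diet (a Harlan Teklad chow with 21% fat and 0.15% cholesterol) began at 8 weeks of age, so the 8-week mice were 16 weeks old when sampled and the 24-week mice 32 weeks old. Age and length of diet therefore cannot be told apart. Each pool held RNA from the arches of 3 mice, except pool 2, which held 2 mice. The other 6 arrays were pools 4, 5 and 6 of Apoe-/- mice after 16 weeks of diet and pools 16, 17 and 18 of wild type mice on the same diet for 16 weeks, both sampled at 24 weeks of age. Mice were fasted overnight, the whole aorta was collected and the arch was profiled, per the design text. The labels mark pools 3 and 6 with an asterisk and do not say why.

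In mice without Apoe, remnant lipoproteins accumulate in plasma and enter the inner wall of the arch, where blood flow is disturbed. Monocytes follow, take up the lipid and become foam cells with large lysosomes, and smooth muscle cells of the media lose contractile proteins, divide and lay down matrix. Older plaques can hold cartilage-like cells and mineral, and fat, nerve and heart muscle lie against the vessel and can enter a dissected sample.

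Every array set 1 pool, labelled with Cy5, against the same Apoe-/- reference, labelled with Cy3 and made of equal parts of RNA from all 3 diet times. A value of 0 on the log2 scale means that the pool equals this reference, and all values below are log2 ratios of pool over reference unless they are named as folds. In the order pools 1, 2 and 3, then 10, 11 and 12, Apoe lay at -0.15, -0.10 and -0.20 after 8 weeks and at 0.23, -0.00 and 0.05 after 24 weeks. In wild type pools 16, 17 and 18 it lay at 2.62, 2.01 and 2.85. The knockout arrays thus sat at the level of the Apoe-/- reference at both times and all wild type arrays above it, and the difference between 24 and 8 weeks did not pass the test (log2 change 0.24 ± 0.17 SE, limma adjusted p = 0.302). Across genes, the 8-week and 24-week arrays had a median Pearson correlation of -0.54 over 9 pairs (range -0.616 to -0.309), against a reference that holds RNA of both times. Since the dye of each channel is stated, the sign was kept as pool over reference. Arrays of the same time correlated with each other at a median of 0.605 at 8 weeks and 0.455 at 24 weeks. Pool 2, of 2 mice, had the widest spread of ratios, with an interquartile range of 0.466 against 0.118 in pool 10.

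Of 19705 genes tested, 2905 (14.7%) were higher after 24 weeks and 2772 (14.1%) were lower, at a Benjamini-Hochberg adjusted p below 0.05 in limma with 3 pools a group. The counts of rises and falls were thus close, but their sizes were not. Rises had a median log2 change of 0.64 and reached 4.60, whereas falls had a median of -0.43 and none went beyond -1.94. At least 2-fold changes numbered 694 rises (3.52% of genes) and 181 falls (0.919%), and 28 rises but no fall exceeded 3 on the log2 scale. The median over all genes was -0.02. The 8-week and 24-week pools did not overlap for 98.7% of the rises and 98.8% of the falls, nor for 44.8% of all genes. The number of calls depended on single pools. Without pool 11, 1729 genes were higher and 1230 lower, and 110 falls reached 2-fold. Without pool 12 the calls were 1893 and 1278. Without pool 2 they were 2426 and 2003, and 112 falls reached 2-fold, and without pool 1 the calls grew to 3453 and 3566. Whether a group holds fewer cells of a type or less RNA per cell cannot be told apart in such bulk tissue.

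**Figure D1:**
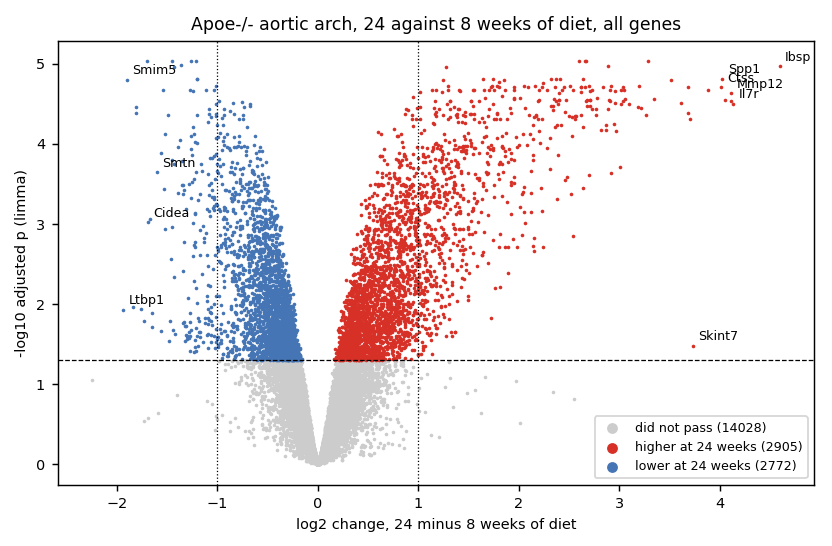
Each point is 1 of 19705 genes, with the log2 change from 8 to 24 weeks on the horizontal axis and the negative log10 of limma's adjusted p on the vertical axis, and with dotted lines at 2-fold. The 2905 rises reach a log2 change of 4.60, while the 2772 falls stop at -1.94.

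Macrophage genes led the rises. Of 29 measured macrophage markers, 27 rose (93.1%, against 14.7% of all genes), with a median log2 change of 2.34 against -0.02 for all genes. Ctss, the cysteine protease cathepsin S of antigen-presenting cells, lay at -2.61, -3.77 and -3.55 after 8 weeks and at 0.59, 0.89 and 0.64 after 24 weeks. Every 24-week pool stood above every 8-week pool, a rise of 16.2-fold (95% confidence interval 10.2 to 25.8, adjusted p = 1.94e-05). In wild type it was lower still, at -5.56, -5.93 and -5.60. Clec7a, the beta-glucan receptor Dectin-1, rose 13.1-fold. Mpeg1, which encodes the pore-forming perforin-2, rose 12.2-fold and Adgre1, the F4/80 antigen, 8.55-fold. Cd68 rose only 1.25-fold, with wild type pools (-0.22, -0.18 and -0.07) beside its 8-week pools (-0.22, -0.08 and -0.28). The growth factor receptor Csf1r, on which macrophages depend, rose 2.58-fold and the lineage factor Spi1 by 0.43 on the log2 scale (probes at -0.07 and 0.93), while Cd163, a haemoglobin scavenger receptor, did not pass (0.31). Itgam, an integrin of myeloid cells, was the 1 marker lower, by -0.79 (adjusted p = 0.0424). In limma that call was lost without pool 2 (adjusted p = 0.135), 3 (0.0631), 4 (0.059), 10 (0.0517), 11 (0.138), 12 (0.111), 16 (0.0544) or 17 (0.054).

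Genes of lipid-loaded macrophages rose in 22 of 24 measured cases, with a median of 2.42. Mmp12, the macrophage elastase, lay at -2.42, -3.82 and -3.90 after 8 weeks and at 0.55, 0.92 and 0.73 after 24 weeks, a 17.3-fold rise (10.3 to 28.9, adjusted p = 2.34e-05). Wild type pools lay between -6.02 and -5.93. Spp1, the secreted phosphoprotein osteopontin, lay at -2.70, -3.91 and -3.86 and then at 0.40, 0.57 and 0.64, a 16.3-fold rise on which both probes passed. Atp6v0d2, a proton pump subunit of macrophages and osteoclasts, rose 12.8-fold, and the integrin Itgax 8.27-fold. Trem2, the lipid receptor of foamy macrophages, Soat1, which esterifies cholesterol for storage, and Fabp5, a fatty acid carrier, rose by 2.91, 2.70 and 3.01 on the log2 scale. Apoc1, an apolipoprotein, and Cd9, a tetraspanin, did not pass, with 0.25 and 0.36.

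Other leading rises included further leukocyte genes. Il7r, the interleukin-7 receptor alpha chain, lay at -2.73, -3.52 and -3.90 after 8 weeks and at 0.62, 1.10 and 0.53 after 24 weeks, 17.5-fold higher (10.1 to 30.5). Rnf128, a membrane ubiquitin ligase known from T cell anergy, rose 17.3-fold, and Bex1, a small protein best known from neurons, 16.6-fold. Wild type pools held Bex1 at -5.69 and -5.56 in pools 16 and 18 and lower still in pool 17, so its 8-week pools (-2.69, -3.89 and -3.89) already stood above them. The inhibitory receptor gene Lilrb4a rose 12.9-fold, the paired receptor gene Pira1 9.15-fold, the tetraspanin Cd53 9.12-fold and the serotonin receptor gene Htr2b 11.4-fold. The survival genes Bcl2a1a, Bcl2a1b and Bcl2a1d rose 9.31-, 9.59- and 10.1-fold, but they are near-identical copies that probes may not separate.

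Lysosomal genes, which digest what macrophages take up, rose in 21 of 28 cases, with a median of 1.16, and none was lower. Gusb, the beta-glucuronidase, rose 6.16-fold, the asparagine endopeptidase gene Lgmn 5.3-fold, and Ctsd, the aspartic protease cathepsin D, 4.55-fold. Ctsd lay at -1.45, -1.53 and -1.84 and then at 0.68, 0.52 and 0.54, with no overlap. The membrane proteins did not all take part. Lamp2 rose by 1.72, while the related gene Lamp1 stood at 0.01 and Scarb2 at 0.08, neither of which passed. Phagocyte oxidase genes, which make superoxide, rose in 5 of 7 cases (median 1.45), among them Ncf4 4.58-fold and Cyba 2.73-fold.

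Many lysosomal genes are known to carry the CLEAR element TCACGTGA, which the lysosomal regulator TFEB binds. Promoter sequences are from RefSeq on GRCm38.p6 and cover 250 bases before to 50 after each start. They were searched on both strands, and the motif was in 5 of 23 lysosomal genes with a window (21.7%), against 1.55% of the 15653 tested genes with one and 0.974% of all 32851 windows. A match is a description of letters and not a bound site. The Ctsd window is shown because that gene both rose and holds the motif, here in capitals, ending 91 bases before the start, at chr7:142387889-142387956 on the minus strand. For macrophage markers, the PU.1 core GAGGAAGT was in 2 of 21 genes with a window, against 3.3% of tested genes and 3.2% of all windows, among them the complement gene C1qc (chr4:136893072-136893139, minus strand, opposite orientation, ending 187 bases before the start). A single window in all held 2 of the motifs searched in overlap.
Ctsd: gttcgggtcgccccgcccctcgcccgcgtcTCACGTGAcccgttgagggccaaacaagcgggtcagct
C1qc: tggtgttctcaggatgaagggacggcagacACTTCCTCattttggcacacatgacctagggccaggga

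Complement genes rose in 11 of 17 cases, with a median of 0.69. C1qc, C1qb and C1qa, the 3 chains of the first component, rose 8.12-, 7.77- and 5.24-fold. C1qc lay at -1.93, -2.83 and -2.43 after 8 weeks and at 0.73, 0.63 and 0.52 after 24 weeks, with no overlap. Clu, clusterin, which restrains the terminal complex, rose 2.88-fold. The 1 lower member of this list was Itgam again, as a chain of a complement receptor, with the pools named above.

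Chemokines, which draw leukocytes into the wall, rose in 15 of 26 cases (median 1.00). Ccl3 rose 6.85-fold, the monocyte attractant Ccl2 5.9-fold, Ccl7 4.7-fold and the neutrophil attractant Cxcl2 4.45-fold. Ccl2 lay at -1.30, -2.41 and -2.19 and then at 0.47, 0.77 and 0.55. Cytokines and their receptors rose in 13 of 24 cases (median 0.94, and 0.59 without pool 2), with the interleukin-1 antagonist Il1rn at 7.07-fold, the chemokine receptor Cxcr4 at 5.93-fold and Il10ra, a chain of the interleukin-10 receptor, at 4.65-fold. Without pool 1 or 2 a chemokine was lower, and without pool 1 a cytokine gene was. Adhesion genes of leukocytes and endothelium rose in 5 of 12 cases (41.7%, against 14.7% of all genes). Vcam1, the endothelial and smooth muscle ligand of monocyte integrins, lay at -1.39, -3.11 and -2.67 and then at 0.05, 0.71 and 0.82, a 7.56-fold rise (4.38 to 13.1) on 2 probes. The hyaluronan receptor Cd44 and the selectin ligand gene Selplg rose 1.77- and 1.56-fold.

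Antigen presentation was read from its own list. Of 12 genes of class II presentation 6 rose, with a median of 0.44, and 3 of 12 without pools 2, 3, 6 and 18, a set whose shared pattern is described with the falls and which was left out after the data were seen. Cd86, a costimulatory ligand, rose 3.86-fold and Cd80 1.99-fold. The class II chain H2-Eb1 lay at -0.75, -0.87 and -1.39 and then at 0.13, 0.36 and -0.42, a rise of 2.04-fold (adjusted p = 0.0425). It lost its call without pool 2 (adjusted p = 0.0702), 3 (0.119), 4 (0.0571), 5 (0.0516), 10 (0.0961), 11 (0.149) or 16 (0.0548). Interferon response genes were higher in 4 of 21 cases (19.0%, near the 14.7% of all genes), none 2-fold, led by the tethering protein gene Bst2 (1.69-fold). The median was 0.16. Without pools 2, 3, 6 and 18 it was 0.14, and none of the 21 genes was called higher. That list had 1 rise without pool 2, 3, 10 or 11 and 2 without pool 12, and 2 members were lower without pool 1 and 1 without pool 3.

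Few lymphocyte markers passed the test. Of 17 T cell genes, 1 rose (5.88%, against 14.7% of all genes) and none was lower. It was the surface protein gene Cd5 (1.93-fold), and the median of the list was 0.01. The count was 2 without pool 1 and 3 without pool 3, and 1 member was lower without pool 10. The 4 defining T cell markers Cd3e, Cd3d, Cd3g and Cd2 did not pass, and their mean per pool ranged from -0.09 to 0.02 at 8 weeks and from -0.25 to 0.26 at 24 weeks. In the B cell list, 2 of 15 genes rose (13.3%, near the 14.7% of all genes), Blnk 7.54-fold and Cd22 6.39-fold. Blnk is an adaptor of B cell receptor signalling and Cd22 its sialic acid-binding brake, and neither of the defining markers Cd79a and Cd79b passed, nor did the plasma cell gene Jchain. Fcmr (-0.53) and Pax5 (-0.32), the IgM receptor and the B lineage factor, were lower (13.3%, near the 14.1% of all genes). Both calls were lost without pool 2, 11 or 12, and 1 of them without pool 3. Neutrophil genes rose in 3 of 14 cases (21.4%, against 14.7% of all genes) and in 1 of 14 without pool 11. The iron-binding lipocalin Lcn2 was 1.39-fold higher. Mast cell genes were 1 higher and 1 lower of 9 (11.1% each, near the background), the stem cell factor receptor Kit rising 2.31-fold. Without pool 1 or 3 the rises were 2, without pool 1 the falls were 2, and without pool 11 or 12 no mast cell gene was lower. None of 6 red cell genes passed.

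Cell cycle genes rose in 24 of 32 cases, with a median of 0.55, and none was lower. Mki67, the proliferation antigen, lay at -0.61, -1.31 and -1.23 after 8 weeks and at 0.27, 0.76 and 0.29 after 24 weeks, a 2.81-fold rise (2.04 to 3.87, adjusted p = 0.000523). Bub1 and Aurkb, kinases of the spindle checkpoint and of chromosome segregation, rose 2.27- and 2.26-fold, and the kinetochore motor gene Cenpe 2.01-fold. Pool 11 was the highest of the 24-week pools for all 4 of these genes. The count of rises fell to 15 without pool 11. Without pools 2, 3, 6 and 18 the median was 0.29, and 8 of the 32 genes were higher and 1 lower. Aurkb and Cenpe each lost their call in 1 of the alternative settings.

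**Figure D2:**
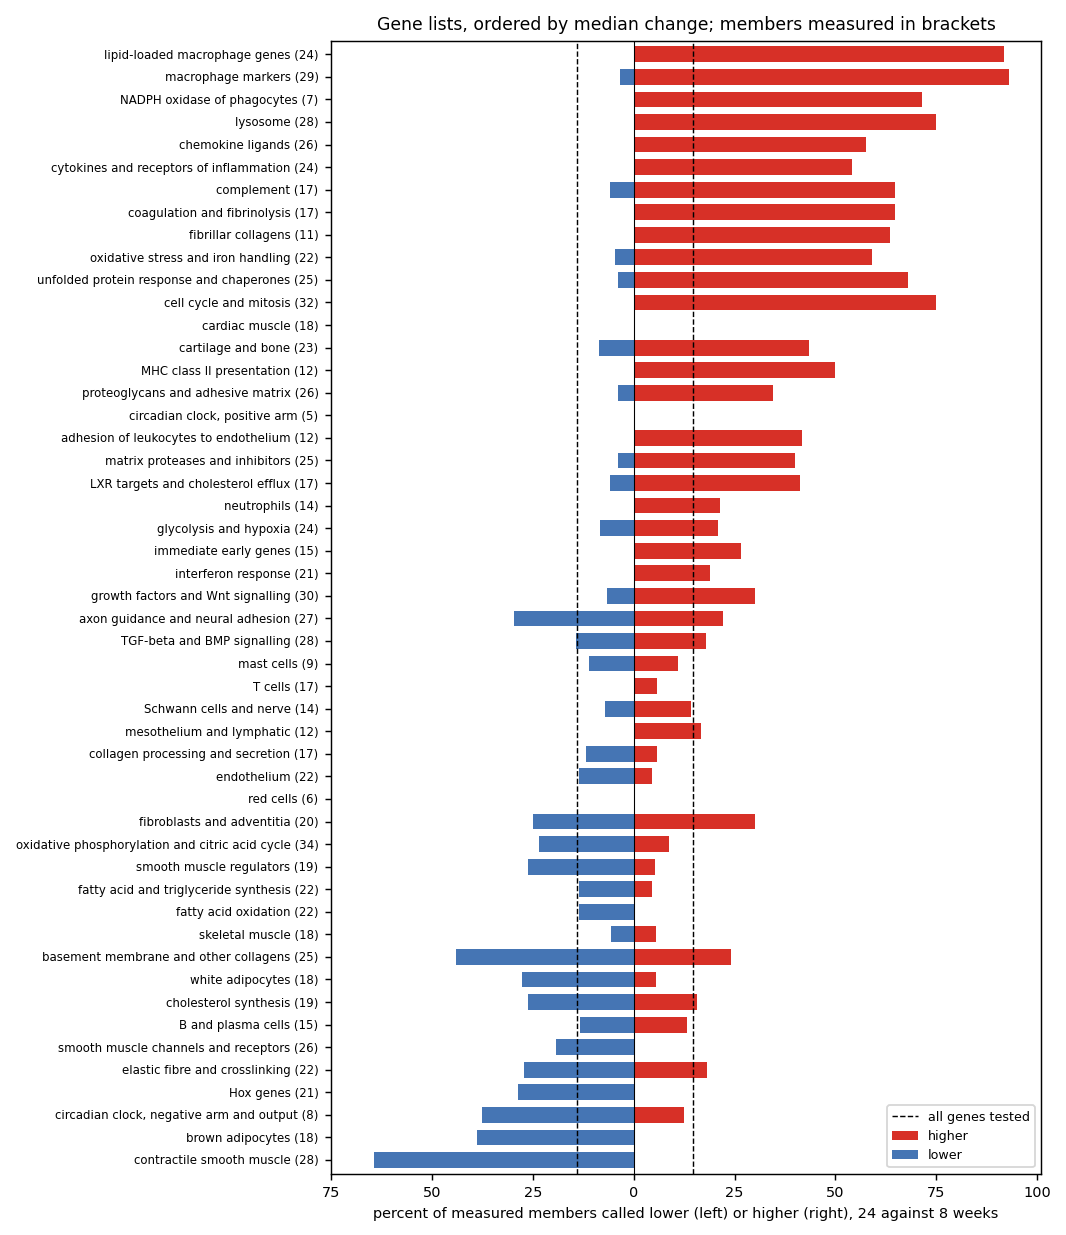
Bars give the percent of measured members of each list that were called higher or lower after 24 weeks, and the dashed lines give the percent of all 19705 genes, 14.7% higher and 14.1% lower. Macrophage markers have the largest share of rises (93.1%) and contractile smooth muscle genes the largest share of falls (64.3%).

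The falls were led by smooth muscle and by genes of several other kinds. Contractile genes of smooth muscle fell in 18 of 28 measured cases (64.3%, against 14.1% of all genes), and none was higher. The median was -0.44 and 7 reached 2-fold. No pool left out moved the count of falls in this list by over 1.5 times. Smtn, smoothelin, which binds actin in fully contractile cells, lay at 0.52, 1.22 and 0.50 after 8 weeks and at -0.77, -0.57 and -1.22 after 24 weeks, a 3.03-fold fall (2.25 to 4.09, adjusted p = 0.000225). Its 16-week pools stood between, at 0.36, 0.15 and 0.23, and wild type pools at 0.73, 0.75 and 0.64, within the range of the 8-week pools.

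Falls of at least 2-fold also took in Flna, filamin A of the actin network, at 2.53-fold, Myl9, the regulatory light chain of smooth muscle myosin, at 2.38-fold, and Lmod1, a nucleator of actin filaments, at 2.35-fold. Myl9 lay at 0.61, 1.12 and 0.58 and then at -0.28, -0.53 and -0.63. Cnn1, calponin, fell 2.31-fold, Pdlim3 2.05-fold and Ppp1r14a, an inhibitor of myosin phosphatase, 2.04-fold. The canonical markers fell as well. Acta2, smooth muscle actin, lay at 0.41, 0.71 and 0.45 and then at -0.29, -0.36 and -0.63, a 1.93-fold fall on which both probes passed. The myosin heavy chain Myh11 lay at 0.53, 0.47 and 0.56 and then at -0.22, -0.35 and -0.28 and fell 1.74-fold, although its wild type pools stood higher than any knockout pool, at 1.03, 1.16 and 0.58. For Tagln, transgelin, the gene fell 1.36-fold, but its probes disagreed, with changes of -0.94 and 0.06. For the kinase gene Mylk (1.67-fold) 1 of 3 probes passed, with a range of -1.64 to -0.11.

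Some muscle genes held no passing change. The tropomyosins Tpm1 and Tpm2 stood at 0.16 and 0.01, the intermediate filament genes Des and Synm at -0.17 and -0.06, and enteric actin Actg2 at -0.11. The mean over the 4 defining markers (Myh11, Acta2, Tagln and Cnn1) ranged from 0.39 to 0.62 over the 8-week pools, from -0.45 to -0.26 over the 24-week pools and from 0.54 to 0.80 over the wild type pools, so 8-week and 24-week pools did not overlap. Over the same pools the mean of the 4 defining macrophage markers (Cd68, Adgre1, Csf1r and Itgam) ranged from -0.82 to -0.72 at 8 weeks and from 0.13 to 0.30 at 24 weeks, in the opposite direction. The part of a changed mix of cells in the smooth muscle result was not tested.

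Serum response factor binds the CArG box, the best known element of contractile genes. Among the 25 genes of this list with a window in RefSeq, 5 held this box, against 1.65% of tested genes and 1.63% of all windows. They were those of Myl9, Myl6, Ldb3, Vcl and Fhl1, of which Myl9, Myl6 and Fhl1 fell while Ldb3 (-0.32) and Vcl (-0.26) did not pass. Fhl1, a LIM protein of muscle, lay at 0.34, 0.28 and 0.25 and then at -0.41, -0.42 and -0.33, a 1.6-fold fall. The Myl9 match ends 151 bases before the start, at chr2:156775273-156775342 on the plus strand, and that of Fhl1 92 bases before it, at chrX:56779551-56779620 on the plus strand. Capitals mark the box.
Myl9: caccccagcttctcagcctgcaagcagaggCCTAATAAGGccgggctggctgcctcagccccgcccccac
Fhl1: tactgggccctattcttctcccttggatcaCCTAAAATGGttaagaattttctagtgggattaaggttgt

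Regulators of smooth muscle fell in 5 of 19 cases (26.3%, against 14.1% of all genes). Heyl, a Notch target of arterial smooth muscle, lay at 0.54, 1.58 and 0.56 and then at -0.47, -0.56 and -0.87, a 2.87-fold fall (1.98 to 4.16). Rbpms, a splicing regulator of the contractile state, lay at 0.67, 0.94 and 0.73 and then at -0.36, -0.46 and -0.46, a 2.3-fold fall with an adjusted p of 1.54e-05. The integrin ligand Npnt fell 1.78-fold, the transcription factor gene Mef2c 1.4-fold and the receptor Notch3 by -0.28. Myocd, the master coactivator, did not pass (-0.07). Klf4, which represses contractile genes, was 2.58-fold higher (adjusted p = 0.0221), with pool 2 at -2.22 against -0.42 and -0.54 in pools 1 and 3. It lost its call without pool 11 (adjusted p = 0.0748) or 12 (0.0766), and without pool 3 a further regulator was higher. Of 26 channels and receptors of smooth muscle 5 were lower (19.2%, near the 14.1% of all genes), 9 without pool 2, and 1 was higher without pool 2 or 11. Gucy1a1, the nitric oxide receptor subunit, fell 1.74-fold, the angiotensin receptor gene Agtr1a 1.73-fold, Pde5a, which breaks down cyclic GMP, 1.61-fold and the calcium channel subunit Cacnb2 1.55-fold.

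**Figure D3:**
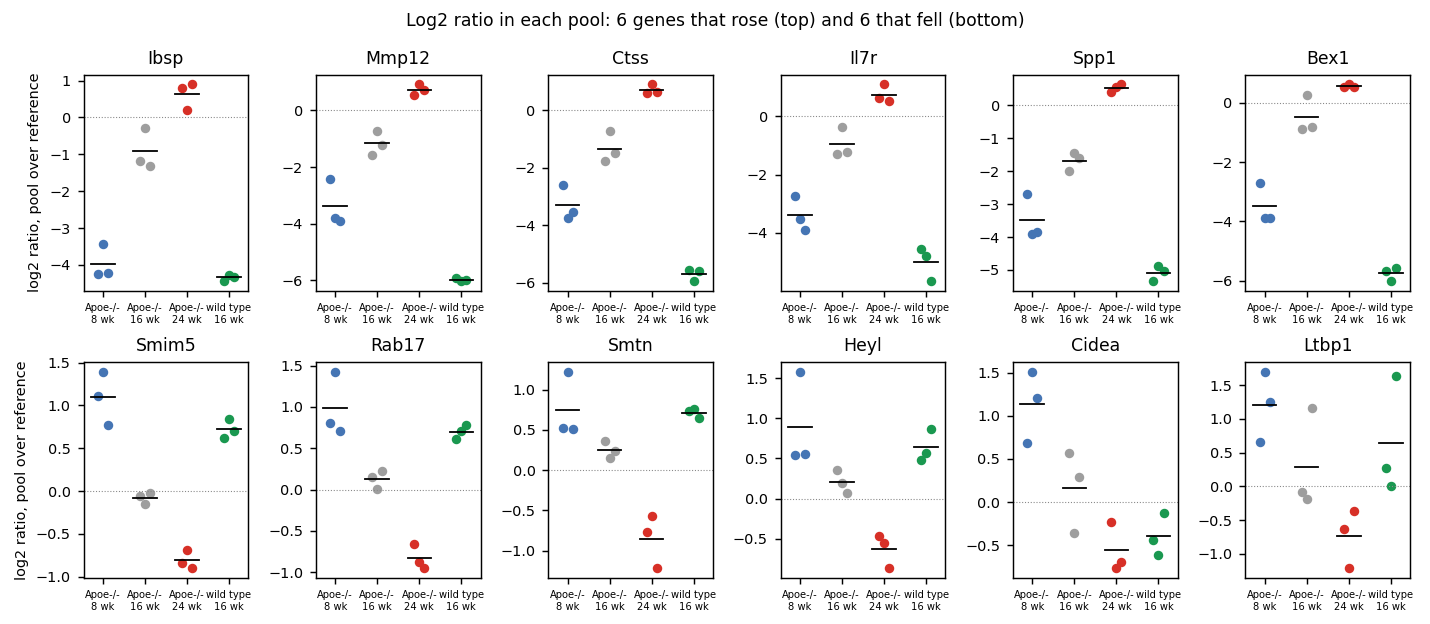
Each panel plots the log2 ratio of 1 gene in every pool, by group, for 6 rises (top) and 6 falls (bottom). For Smtn the 8-week pools lie between 0.50 and 1.22 and the 24-week pools between -1.22 and -0.57, while for Cidea the wild type pools (-0.61 to -0.13) lie with the 24-week pools.

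Smim5, a small membrane protein of little known role, was among the 20 largest falls. It lay at 1.11, 1.39 and 0.78 after 8 weeks and at -0.84, -0.69 and -0.90 after 24 weeks, a 3.73-fold fall (3.04 to 4.58, adjusted p = 1.58e-05). Kcnc4, a voltage-gated potassium channel, lay at 0.91, 1.10 and 0.80 and then at -0.62, -0.84 and -1.16, 3.52-fold lower. Rab17, a small GTPase of polarized membrane traffic, lay at 0.81, 1.43 and 0.71 and then at -0.66, -0.88 and -0.95, also 3.52-fold lower. For all 3 genes the 16-week pools lay between the other times and the wild type pools beside the 8-week pools. Denn2b, an exchange factor for Rab proteins, fell 2.95-fold, Lrrc17, a secreted leucine-rich protein, 2.92-fold, Galnt16, which starts O-linked sugar chains, 2.88-fold, and Tppp3, a tubulin-binding protein, 2.82-fold. Bcam, a laminin receptor, fell 2.89-fold, from 0.67, 1.49 and 0.72 to -0.25, -0.71 and -0.76, while wild type pools stood higher at 1.76, 1.95 and 2.03. The cold-inducible RNA-binding gene Cirbp fell 2.76-fold and the antisense transcript Sox6os 2.74-fold.

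A share of the falls varied between pools in a way that the groups do not explain. For Ltbp1, a carrier of latent TGF-beta and the largest fall, pools 1, 2 and 3 lay at 0.66, 1.70 and 1.25 and pools 10, 11 and 12 at -0.63, -1.21 and -0.37. Its 16-week pools lay at -0.08, -0.19 and 1.15 and its wild type pools at 0.27, 0.01 and 1.63, so pools 6 and 18 stood far above their own groups. The fall was 3.84-fold (1.88 to 7.83, adjusted p = 0.0117), and without pool 11 it did not pass (adjusted p = 0.0544). The same pools stood out for Hoxd11, a posterior homeobox gene (3.32-fold lower), the growth factor gene Mdk (3.13-fold), Mbd3l1 (2.79-fold) and Nt5c3b (2.77-fold). Without pool 11 their adjusted p rose to 0.0693, 0.0805, 0.108 and 0.0688, and without pool 2 to 0.0533, 0.0638, 0.0874 and 0.0533. Mbd3l1 did not pass without pool 3 (0.0667) or 12 (0.0637) either.

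To describe how many genes share this, the height of pools 6 and 18 above the other pools of their own groups was averaged for each gene. These pools are outside the comparison, and the measure was chosen after the values were seen. A height of at least 0.5 was found for 56 of the 181 falls of at least 2-fold (30.9%), for 1 of the 694 such rises (0.144%) and for 283 of all genes (1.44%). Over the 56 falls, the median ratio was 0.39, 1.10 and 0.98 in pools 1, 2 and 3 and -0.27, -0.73 and -0.30 in pools 10, 11 and 12. Over the other 125 falls it was 0.59, 0.98 and 0.59 and then -0.33, -0.54 and -0.60. How pools 6 and 18 stand in either set follows from the split itself. The part of this pool pattern in the 56 falls was not tested. Without pools 2, 3, 6 and 18, 161 of the 181 falls and 652 of the 694 rises were still called, and 1797 genes in all were higher and 1709 lower. Of genes described elsewhere, Bst2, Kit, Egfl7, Col3a1, Lamb2, Cygb, Sqle, Abcg8, Hadh, Tgfb1, Hoxb4 and Slc40a1 passed without each single pool but not without these 4 (adjusted p between 0.0509 and 0.179).

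**Figure D4:**
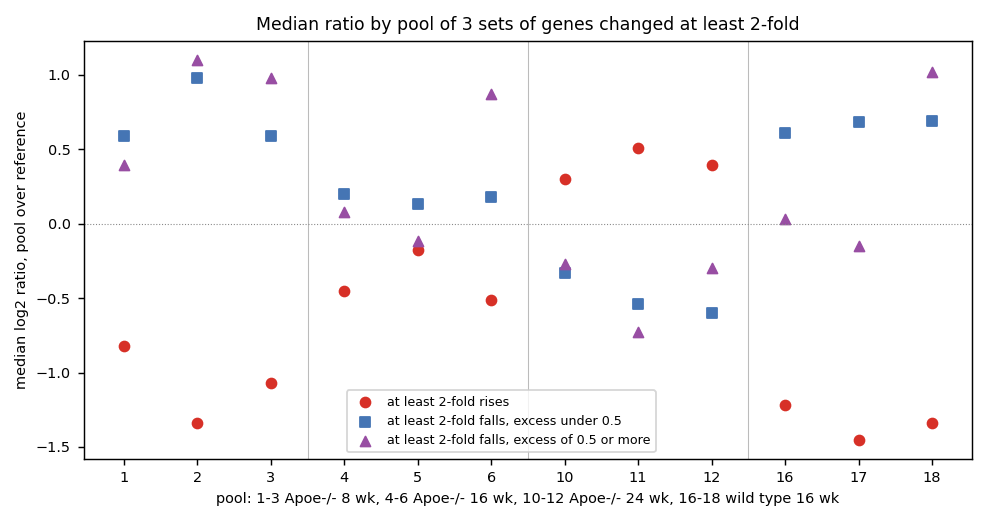
Points give the median log2 ratio in each pool of the 694 rises, of the 125 falls without and of the 56 falls with a height of pools 6 and 18 of 0.5 or more. In the pools compared the last set lies at 0.39, 1.10 and 0.98 and then at -0.27, -0.73 and -0.30, while its place in pools 4, 5, 6, 16, 17 and 18 is fixed by how it was chosen.

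Some falls were low in wild type too. For 20 of the 181 falls (11.0%) the wild type mean was nearer to the 24-week than to the 8-week mean, against 40.2% of all genes and 4.76% of the 694 rises. Of these 20, 8 also had a height of pools 6 and 18 of at least 0.5 (40.0%, against 30.9% of the 181), among them Cox8b (0.69), Slc2a4 (0.52), Pck1 (0.51) and Hoxc4 (1.03). Cidea, a lipid droplet protein of brown fat, had the largest fall of the 20 and a height of 0.28. It lay at 0.69, 1.51 and 1.20 after 8 weeks and at -0.23, -0.76 and -0.69 after 24 weeks, a 3.24-fold fall (2.17 to 4.83, adjusted p = 0.000956), with wild type at -0.44, -0.61 and -0.13. Several of the 20 serve fuel use in fat and muscle. These were Gpd1, the glycerol phosphate dehydrogenase (-1.27), the insulin-regulated glucose transporter Slc2a4 (-1.21), Pck1, which makes phosphoenolpyruvate (-1.20), pyruvate carboxylase Pcx (-1.10), the coactivator Ppargc1b (-1.09) and the lipase Pnpla2 (-1.05). The values of Gpd1 and Pck1 were uneven at 8 weeks, with an SD of 0.66 and 0.79 among the 3 pools, and both genes, with Pcx and Ppargc1b, were picked from the 20 after their values were seen.

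Brown adipocyte genes as a list fell in 7 of 18 cases (38.9%, against 14.1% of all genes), none rose, and the median was -0.32. Without pool 11, 4 fell, and without pool 2 the median was -0.68 with 8 falls. Cox8b, a cytochrome oxidase subunit of brown fat and heart, fell 2.52-fold, from 0.64, 1.32 and 0.79 to -0.18, -1.03 and -0.04, and lost its call without pool 2 (adjusted p = 0.0563) or 11 (0.0732). Prdm16, the brown fat determinant, which the arterial wall also expresses, fell 2.42-fold, from 0.82, 0.88 and 0.54 to -0.40, -0.63 and -0.57. Its wild type pools were high, at 0.60, 0.74 and 0.54, unlike those of Cidea and Cox8b. Dio2, the deiodinase that activates thyroid hormone, fell 1.8-fold and Ppara, a fatty acid sensor, 1.72-fold on all 3 probes. Ucp1, the uncoupling protein that defines brown fat, lay at 0.54, -0.32 and 0.92 and then at -0.11, 0.12 and 0.29 and did not pass (adjusted p = 0.432), and neither did Elovl3 (-0.03) or Cox7a1 (0.18). The mean over the 4 defining markers ranged from 0.23 to 0.45 at 8 weeks and from -0.41 to 0.01 at 24 weeks.

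White adipocyte genes were mixed. Slc2a4 fell 2.31-fold, Pnpla2 2.07-fold, the lipid droplet genes Cidec and Plin1 1.95- and 1.69-fold, and the glycerol channel Aqp7 by -0.54. The hormone genes Adipoq, Lep and Retn stood at -0.02, -0.16 and -0.00 and did not pass. Lpl, lipoprotein lipase, which macrophages also make, went the other way at 5.29-fold higher. The list held 1 rise and 5 falls of 18 (5.56% and 27.8%, against 14.7% and 14.1% of all genes), with a median of -0.16. It held 2 rises without pool 3. Without pools 2, 3, 6 and 18 its median was -0.07, with 1 rise and 3 falls. Of 22 fatty acid oxidation genes 3 were lower (13.6%, near the background). Of 34 oxidative phosphorylation genes 8 were lower and 3 higher (23.5% and 8.82%, against 14.1% and 14.7% of all genes). Ndufv1, a subunit of complex I, was 1.72-fold lower. Without pool 11 the second list held 4 falls and 0 rises, without pool 2 or 12 also 0 rises, without pool 10 it held 1 rise and without pool 1 it held 7. Acads, Hadh and Eci2, enzymes of fatty acid oxidation, fell 1.82-, 1.48- and 1.33-fold. Acads lost its call without pool 11 (adjusted p = 0.0541), and without pool 1 a gene of that list was higher. Genes of fatty acid and triglyceride synthesis were 1 higher and 3 lower of 22 (4.55% and 13.6%, not above the background), none beyond 1.5-fold. Without pool 11 or 12 they were 0 and 1, without pool 2 or 10 none was higher, and without pool 3 the rises were 2.

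Sftpc, the surfactant protein C of lung alveoli, fell 3.18-fold, from 0.88, 0.90 and 2.04 to -0.21, -0.41 and -0.57. The other surfactant genes were read as well, after its values were seen. Sftpb lay at 0.56, 0.12 and 1.21 and then at -0.03, -0.16 and -0.11, with a change of -0.73 (adjusted p = 0.027), and Sftpa1 lay at 0.46, 0.11 and 1.70 and then at -0.13, -0.61 and 0.24, which did not pass (-0.92, adjusted p = 0.0657). Sftpd did not pass either (-0.15). Pool 3 was the highest of all 12 pools for all 4 genes. The part of lung tissue in the fall of Sftpc was not tested. Gkn3, gastrokine 3, known from the mouse stomach and from arterial endothelium of the brain, fell 2.75-fold, with wild type pools at -0.40, -0.81 and -0.42 beside the 24-week pools.

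**Figure D5:**
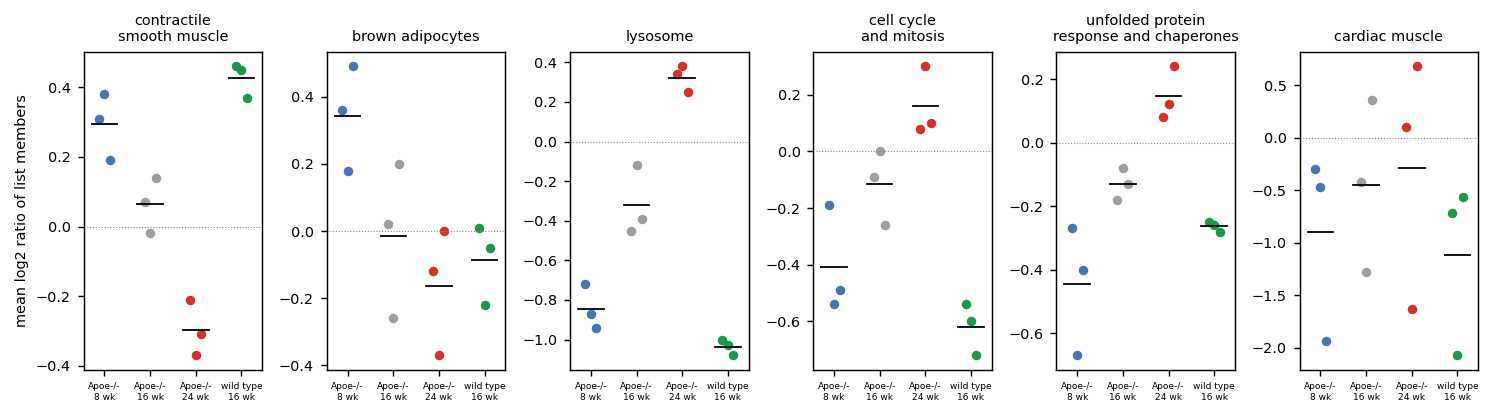
Each panel plots the mean log2 ratio of a gene list in every pool. Contractile smooth muscle genes run from 0.19 to 0.38 at 8 weeks and from -0.37 to -0.21 at 24 weeks, and cardiac muscle genes vary from -1.93 to 0.68 over the knockout pools with no order by group.

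Heart muscle genes differed among pools more than between times. The mean of 18 cardiac genes was -0.30, -0.47 and -1.93 in pools 1, 2 and 3 and 0.10, -1.63 and 0.68 in pools 10, 11 and 12, and none passed. Without pool 1 or 11, 1 did. Nppb, the natriuretic peptide, had the largest difference, 2.34 ± 1.08, with a 24-week range from -2.51 to 2.16. Skeletal muscle genes were 1 higher and 1 lower of 18 (5.56% each, not above the background), and both calls were lost without pool 2, 10 or 11. Without pool 3 or 12 the higher one was lost, and without pool 1 the falls were 2. Schwann cell genes were 2 higher and 1 lower of 14 (14.3% and 7.14%, not above the background), each under 1.5-fold. The lower one, Sox10, lost its call when pool 1, 2, 10, 11 or 12 was left out, neither rise passed without pool 11 or 12, and 1 of them passed without pool 1, 3 or 10. Of 12 mesothelial and lymphatic genes 2 rose (16.7%, near the background), with the glycoprotein Pdpn at 3.18-fold. Lyve1, the other, lost its call without pool 1, 2, 4, 5, 6, 10, 11, 12 or 18, with p between 0.0508 and 0.109, and 2 members were lower without pool 1. The 4 defining endothelial markers Pecam1, Cdh5, Tie1 and Tek did not pass, and their mean stayed between -0.12 and 0.16 over the 6 pools compared. The wider endothelial list had 3 falls of 22 (13.6%, near the background), led by Egfl7, a secreted factor of vessels (1.87-fold), and 1 rise, Klf4. Without pool 11 or 12, 1 fall and no rise was left, and without pool 1 there were 5 falls and 2 rises.

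Matrix genes split by type. Fibrillar collagens, the cable-forming collagens of scar and cartilage, rose in 7 of 11 cases (median 0.62) and none was lower. Col3a1 lay at -0.47, -1.04 and -0.68 and then at -0.05, 0.37 and 0.66, a 2.08-fold rise, and Col5a2 rose 1.95-fold, the cartilage collagen Col2a1 1.8-fold, Col24a1 2.43-fold and Col1a1 by 0.62, while Col1a2, its partner chain, did not pass (0.22). Genes of the basement membrane and of other collagens had 6 rises and 11 falls of 25 (24.0% and 44.0%, against 14.7% and 14.1% of all genes). There were 7 falls without pool 11. The short-chain collagens Col8a1 and Col8a2, which migrating smooth muscle cells make, rose 3.15- and 2.05-fold, and the laminin chain Lamb1 2.31-fold. The falls included Lama4, a laminin chain of vessel basement membranes, from 0.46, 0.84 and 0.62 to -0.27, -0.48 and -0.52 (2.09-fold), and Col18a1, the source of endostatin, from 0.53, 0.86 and 0.62 to -0.17, -0.37 and -0.45 (2-fold). The laminin chain Lamb2 and the heparan sulfate proteoglycan perlecan, Hspg2, fell 1.77- and 1.74-fold. The main basement membrane chains Col4a1 and Col4a2 fell by -0.42 and -0.55.

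Elastic fibre genes had 4 rises and 6 falls of 22 (18.2% and 27.3%, against 14.7% and 14.1% of all genes). Ltbp2, a fibrillin-binding protein, rose 3.29-fold, the fibulin gene Efemp1 2.71-fold and Lox, the crosslinking oxidase, 2.01-fold. Ltbp4, which elastic fibre assembly needs, fell 2.26-fold, and Loxl1, another crosslinking enzyme, 1.55-fold. Eln, elastin itself, lay at 0.56, 0.68 and 0.06 and then at -0.28, -0.41 and -0.11, a 1.63-fold fall, which did not pass without pool 2 (adjusted p = 0.0732), 10 (0.052) or 11 (0.0871). Fbn1, the microfibril protein fibrillin-1, did not pass (0.16). Without pool 11 the list held 3 falls. Genes that process and secrete collagen were 1 higher and 2 lower of 17 (5.88% and 11.8%), with Plod2, a lysyl hydroxylase, at 1.94-fold. Without pool 1 or 3 the rises were 2, and without pool 11 or 12 there was 1 fall.

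Proteoglycans and adhesive proteins rose in 9 of 26 cases (34.6%, against 14.7% of all genes). Lum, lumican, which spaces collagen fibrils, lay at -1.88, -2.41 and -3.04 and then at 0.09, 0.48 and 0.70, a 7.3-fold rise (4.74 to 11.2). Fn1, fibronectin, rose 3.87-fold, the link protein Hapln1 2.3-fold and Has1, a hyaluronan synthase, 1.89-fold. Ogn, osteoglycin, fell from 0.58, 0.09 and 0.80 to -0.22, -0.30 and -0.26 (1.69-fold), and without pool 1 or 2 a further member of the list was lower. Proteases of the matrix rose in 10 of 25 cases (40.0%). After Mmp12 came the collagenase Mmp13 at 14.8-fold, the leukocyte protease Adam8 at 9.77-fold and stromelysin, Mmp3, at 7.29-fold. Mmp13 lay at -2.64, -3.30 and -3.61 and then at 0.10, 1.07 and 0.94. Adamts8 was the 1 protease lower, 1.91-fold, and 2 were lower without pool 1 or 2. Fibroblast genes had 6 rises and 5 falls of 20. Besides Lum they were led by the stem cell antigen Ly6a (2.28-fold) and the protease Fap (1.62-fold), and on the other side by the globin Cygb (1.71-fold). Without pool 11 there were 3 rises and 3 falls, and without pool 2 or 12 also 3 falls.

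Cartilage and bone genes held the largest rise of all. Ibsp, bone sialoprotein, which seeds mineral, lay at -4.24, -3.45 and -4.21 after 8 weeks, at -1.17, -0.29 and -1.30 after 16 weeks and at 0.79, 0.21 and 0.90 after 24 weeks. Its wild type pools, at -4.43, -4.26 and -4.33, lay beside the 8-week pools, unlike those of Ctss and Mmp12. The rise was 24.2-fold (15.6 to 37.4, adjusted p = 1.07e-05), of which 66.2% on the log2 scale was reached by 16 weeks. Tnfrsf11b, osteoprotegerin, the decoy that blocks osteoclast formation, rose 8.02-fold, and Runx2, the master factor of bone cells, 2.78-fold. Runx2 lay at -0.86, -0.94 and -1.28 and then at 0.12, 0.66 and 0.57. In all 10 of 23 genes rose (43.5%, against 14.7% of all genes, with a median of 0.49). Tnfrsf11a, the receptor RANK (-0.26), and Alpl, the alkaline phosphatase of mineralizing cells (-0.25), were lower. Both calls were lost without pool 11 or 12 and 1 of them without pool 2 or 3.

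Targets of the sterol sensor LXR rose in 7 of 17 cases (41.2%, against 14.7% of all genes). Abcg1, which exports cholesterol from macrophages, lay at -1.82, -2.69 and -2.38 and then at 0.61, 0.69 and 0.54, a 7.51-fold rise. Mylip, which degrades the LDL receptor, rose 2.37-fold, the phospholipid transfer gene Pltp 2.36-fold and the scavenger receptor Cd36 1.95-fold. Abcg8, a sterol exporter of liver and gut, was the 1 lower (1.26-fold), and 2 were lower without pool 1, 3 or 10. Cholesterol synthesis genes were split, 3 higher and 5 lower of 19 (15.8% and 26.3%, against 14.7% and 14.1% of all genes). Srebf2, the transcription factor that drives the pathway, lay at 0.40, 1.00 and 0.37 and then at -0.31, -0.35 and -0.49, a 1.96-fold fall. Fdft1, squalene synthase, fell 1.93-fold and Sqle, squalene epoxidase, 1.68-fold. Msmo1 (1.62-fold) and the sterol sensor partner Insig1 (1.38-fold) were higher. Without pool 11 or 12 the list held 0 rises and 3 falls, without pool 3 it held 1 rise, and without pool 1 or 10 it held 3 falls.

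Growth factor and Wnt genes rose in 9 of 30 cases. Pdgfc, a growth factor of mesenchymal cells, rose 4.35-fold, Igf1 3.86-fold and Frzb, a secreted Wnt antagonist, 2.17-fold. Igf1 and its fetal relative Igf2 parted. Igf1 lay at -1.23, -1.38 and -1.56 and then at 0.65, 0.49 and 0.53, whereas Igf2 lay at 0.65, 0.51 and 1.22 and then at -0.49, -0.64 and -0.77, a 2.69-fold fall (2.08 to 3.48, adjusted p = 0.000176). The other fall, of Wnt11 (1.38-fold), was lost without pool 2, 3, 11 or 12. Genes of TGF-beta and BMP signalling had 5 rises and 4 falls of 28 (17.9% and 14.3%, near the 14.7% and 14.1% of all genes), none 2-fold. The receptor Bmpr1b fell 1.68-fold, the ligand Tgfb3 1.54-fold, from 0.34, 0.47 and 0.38 to -0.08, -0.29 and -0.30, and Tgfb1 1.19-fold. The receptors Tgfbr1 and Tgfbr2 were 1.55- and 1.71-fold higher. Without pool 11 no member was higher (adjusted p = 0.0736 for Tgfbr1 and 0.0519 for Tgfbr2), and without pool 12 there were 2.

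Genes of nerve guidance, which vessels also use, had 6 rises and 8 falls of 27 (22.2% and 29.6%, against 14.7% and 14.1% of all genes). The netrin receptor Unc5c lay at 0.67, 0.30 and 0.70 and then at -0.41, -0.43 and -0.57, a 2.04-fold fall, and the repellent Sema3a also fell 2.04-fold, the adhesion molecule Ncam1 2.02-fold and Sema3c 1.49-fold. The semaphorin coreceptor Nrp1 rose 1.65-fold and Plxna2, a plexin, 1.56-fold. Without pool 11 or 12, 2 rises were left, and without pool 10, 3. Homeobox genes of the Hox clusters keep a record of position along the body. Of the 21 measured members of their list, 6 fell (28.6%, against 14.1% of all genes) and none rose. Hoxd11, given above, is not in this list. Hoxa7 lay at 0.65, 0.97 and 0.60 and then at -0.14, -0.36 and -0.32, a 2.02-fold fall, and Hoxc6 fell 1.78-fold and Hoxb4 1.45-fold. For Hoxa7 and Hoxc6 the 16-week pools (-0.19, -0.11 and 0.15, and -0.37, -0.28 and -0.05) already lay with the 24-week pools. Hoxc4 fell 2.53-fold, shared the height of pools 6 and 18 (1.03), and did not pass without pool 2 (adjusted p = 0.0561) or 11 (0.065).

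The unfolded protein response, which expands the folding capacity of the endoplasmic reticulum, was higher in 17 of 25 genes (median 0.55). Hspa5, the chaperone BiP, lay at -0.93, -2.28 and -1.13 and then at -0.02, 0.41 and 0.70, a 3.51-fold rise (2.24 to 5.52, adjusted p = 0.00134), with wild type at -0.57, -0.75 and -0.75. Sdf2l1, a partner of BiP, rose 3.43-fold, Edem1, which sends misfolded proteins to degradation, 2.96-fold, the disulfide isomerase Pdia4 2.35-fold, Dnajb9 2.12-fold and Creld2 2.07-fold. The transcription factor genes Ddit3 (-0.17) and Atf4 (0.43) did not pass, whereas Xbp1 rose by 0.71. Hspa1a, a heat shock protein, was 1.26-fold lower, a call lost without pool 1, 3, 11 or 12, and 2 members were lower without pool 2.

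The element that the stress factors ATF6 and NF-Y read, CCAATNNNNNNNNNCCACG, was in 6 of the 23 genes of this list with a window, against 0.153% of tested genes and 0.119% of all windows. They were those of Hspa5, Calr, Canx, Pdia6, Dnajc3 and Creld2. Of these Hspa5, Canx, Dnajc3 and Creld2 rose, while Calr (0.09) and Pdia6 (0.24) did not pass. The match of Hspa5 ends 46 bases before the start (chr2:34771995-34772073, plus strand) and that of Creld2 107 bases before it, in the opposite orientation (chr15:88819490-88819568, plus strand). Both are shown with the match in capitals. Creld2 lay at -0.89, -0.93 and -0.86 after 8 weeks, at 0.02, -0.04 and 0.08 after 16 weeks and at -0.07, 0.14 and 0.39 after 24 weeks, so 87.5% of its rise had come by 16 weeks.
Hspa5: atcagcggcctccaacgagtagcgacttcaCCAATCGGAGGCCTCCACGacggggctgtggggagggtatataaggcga
Creld2: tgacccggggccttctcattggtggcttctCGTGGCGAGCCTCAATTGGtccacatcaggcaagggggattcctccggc

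Oxidative stress and iron genes rose in 13 of 22 cases (median 0.61). Without pools 2, 3, 6 and 18 the rises were 9 and the median 0.39. Hmox1, which breaks down haem, lay at -0.99, -1.56 and -1.48 and then at 0.40, 0.36 and 0.49, a 3.38-fold rise. The iron store Ftl1 rose 2.81-fold, the iron exporter Slc40a1 2.72-fold and the phagosomal transporter Slc11a1 2.66-fold. Sod1, a superoxide dismutase, was lower by -0.19, a call lost when any 1 of pools 1, 3, 4, 5, 6, 10, 11, 12, 16, 17 and 18 was left out (adjusted p between 0.0532 and 0.145). Without pool 2, 2 members were lower. Coagulation and fibrinolysis genes rose in 11 of 17 cases, 7 without pool 11, with Plau, the urokinase, at 5.08-fold, F7, coagulation factor VII, at 4.41-fold and the protease inhibitor Serpina3n at 3.64-fold. Glycolysis and hypoxia genes had 5 rises and 2 falls of 24 (20.8% and 8.33%, against 14.7% and 14.1% of all genes), with Pgk1 at 1.94-fold. Without pool 12 the rises were 2, without pool 11 they were 3, and without pool 10, 11 or 12 there was 1 fall. Immediate early genes, which react within minutes of handling or stimulus, rose in 4 of 15 cases (26.7%, against 14.7% of all genes). These were Egr2 at 3.95-fold, Junb at 2.16-fold, Egr3 at 2.04-fold and Myc at 1.83-fold, and without pool 2, 2 members were lower. Egr3 lost its call without pool 11 (adjusted p = 0.0578) or 12 (0.0541). The median of that list was 0.18, but -0.04 without pool 2 and 0.31 without pool 1. Clock genes of the positive arm did not pass (0 of 5). Of 8 genes of the negative arm and output, 3 fell and 1 rose (37.5% and 12.5%). Nr1d1 fell 1.96-fold and Hlf 1.69-fold, while Bhlhe41 rose 1.55-fold. Per1, the other fall, lost its call in 16 of 23 alternative settings.

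The 16-week pools stood between the other times for most changed genes. Their mean lay between the 8-week and 24-week means for 94.7% of the rises and 95.9% of the falls, against 64.5% of all genes. Called genes were chosen for a wide gap between these means, which by itself makes a mean inside it likely. The shares are therefore not compared like with like. By 16 weeks the median rise had covered 44.1% of its span on the log2 scale and the median fall 41.9%. Over all genes the median was 45.1%. The step from 8 to 16 weeks alone had 372 rises and 100 falls past the test (1.89% and 0.507% of genes), and that from 16 to 24 weeks 785 and 387 (3.98% and 1.96%). These steps share the 16-week pools with each other and their outer pools with the 24 against 8 comparison. In limma 0 genes departed from a straight line through the 3 times (smallest adjusted p 0.766), and 985 had an unadjusted p below 0.05. That count depended on scaling, since 880 genes departed after quantile normalization and 473 after equal spread was imposed on all arrays.

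Wild type pools share no RNA with the pools compared. Of the 694 rises of at least 2-fold, the wild type mean was below the 8-week mean for 487 and above it for 207. Of the 181 falls it was below the 8-week mean for 127 and above it for 54. Over all genes it was below for 9383 and above for 10322. The 694 and 181 genes were chosen by a change that uses this same 8-week mean, which by itself can shift their counts. All genes carry no such choice, so no conclusion is drawn from the difference. These wild type mice were 8 weeks older than the 8-week knockouts when sampled, so genotype, age and diet differ together in this last comparison.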

How the data were processed

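RNA from pooled aortic arches was hybridised to 2-colour arrays without dye swaps, per the labels. The deposited table holds log ratios of pool (Cy5) over reference (Cy3) as processed by the authors, taken here as log10. The sources used here do not give the scanner, background correction or normalization. The log base is not stated, and was inferred from the values. The inference takes each knockout pool as part of the reference, which the titles do not say, and all folds rest on it. The knockout pools together hold more mice than the 21 of the reference, so not every mouse of these pools can be in it. The titles also call the reference vehicle and the pools no drug. The base is therefore an assumption. For 20 probes high in a single pool, base 10 implies that the pool makes up a median of 13.8% of the reference (range 8.02 to 18.5), near the 14.3% that 3 of 21 mice would give, against 29.2% for base 2. Column medians ran from -0.0025 to 0.0181, so the columns are centred close to 0.

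Ratios were multiplied by 3.322 to give log2. Of 39556 probes, 39154 had a value on all arrays, 23283 have 1 gene symbol, 0 several and 16273 none in the platform annotation. Of 20551 symbols, 5952 were updated through RefSeq. Probes of a gene were averaged, giving 19705 genes. With limma 3.58.1 in R 4.3.3, 1 mean per group was fitted to all 12 arrays (8 residual degrees of freedom), and p-values were adjusted by Benjamini-Hochberg over all genes. Scripts were tested on simulated data. Array number limits the precision, and since each pool holds several mice, p-values rest on differences among pools of a group.

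The comparison and its 50 gene lists (991 genes measured) were chosen with earlier results of these data known. Named are the 20 largest rises and falls whose pools do not overlap and whose probes go the same way, leaving out predicted or unnamed symbols (5 falls in that range, 4 of them high in pools 6 and 18), up to 4 called members per list and direction (or, with none, the largest change), Apoe, the defining markers, and a few members chosen after their values were seen. Alternatives changed the arrays, scaling, weights, probe summary and filter, and left out each pool. Probes without a symbol entered no gene test.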

Additional observations from a re-analysis of the deposited data

How the results depend on the processing

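No paired analysis was possible because the pools of different groups share no number. Of 285 named genes, 242 were called and 153 stayed called in all 23 settings. None of the 242 changed sign in any of these, whereas 20 of the 43 not called did in at least 1, and 516 losses and 23 gains of a call were spread over the settings. Of all calls, 1 changed sign with the probe of largest variance and 1 without pools 2, 3, 6 and 18, a setting added after the data were seen.

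Counts moved more. Fitting only the 6 arrays compared gave 1873 rises and 1393 falls, a fit with fewer samples. Quantile normalization gave 412 falls of at least 2-fold and 880 genes off the straight line at 16 weeks, and equal spread 473 off the line. Without pools 2, 3, 6 and 18 there were 1797 rises, 1709 falls and 69 genes off the line. Each probe by itself gave 4330 lower probes, 322 of them 2-fold. The cause of these moves was not tested. Leaving out 1 pool at a time gave 1729 to 3453 rises, 1230 to 3566 falls, 569 to 903 rises and 110 to 248 falls of at least 2-fold, and 0 to 0 genes off the line. The share of calls that were higher ranged from 49.2% to 59.7% (51.2% in the fit reported). The median of all genes stayed between -0.028 and 0.031. Of the 181 falls, 122 were still called without pool 11 and 137 without pool 2, and of the 694 rises 653 and 679.

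With 3 pools a group, dim signal cannot be judged, since the table holds ratios without intensities. A gene near background can therefore show a compressed ratio, and levels cannot be compared between genes.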

Other observations

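Probes without a gene symbol changed too. Of 16129 with a value on all arrays, 989 were higher and 1448 lower after 24 weeks, of which 134 and 97 at least 2-fold; falls thus outnumbered rises, but not among changes of at least 2-fold. For 153 called genes with several probes, the changes of the probes went in opposite directions.

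Skint7 was among the 20 largest rises named. It lay at -0.13, -6.64 and -3.90 in pools 1, 2 and 3 and at -0.01, 0.27 and 0.25 in pools 10, 11 and 12. The 16-week and wild type pools stood between -0.16 and 0.06. The pool 2 value is the lowest of its column (-2.0 on the log10 scale), and whether that is a floor was not tested. Its 13.3-fold rise (2.32 to 76.1, limma adjusted p = 0.033) did not pass without pool 2 (adjusted p = 0.068), 3 (0.0752), 10 (0.0639), 11 (0.0921) or 12 (0.0893).

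Jchain, the joining chain of plasma cell antibodies, stood at 3.31 in pool 4 and between -3.14 and -1.28 in the pools compared. Cd163 was higher in all 3 of the 16-week pools (0.13, 0.36 and 0.68) than in pools 1 and 2 (-0.57 and -0.54), with pool 3 at 0.24.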
